A study of Homo sapiens with 5 samples.

Results

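hsa-miR-191 and hsa-miR-425 are processed from neighbouring hairpins within DALRD3, a protein-coding gene on human chromosome 3. They were taken by exact probe name and made up 2 of the 734 miRNA probes of the panel. Both were read in Caco2, an established human line from a colorectal adenocarcinoma that grows as a polarised epithelium, to ask how depletion of PLEKHA7, an adherens junction protein, affects miRNA levels. One group carried a non-target shRNA (NT, n = 2, replicates 1 and 3) and the other an shRNA against PLEKHA7 (shPLEKHA7, n = 3), in both cases after infection and selection. The series design describes independent infections, and every group shares the line, the infection and the selection. The panel has no PLEKHA7 probe, so knockdown was not measured here, and the source fields of shPLEKHA7 replicates 2 and 3 name shPLEKHA8 and shPLEKHA9. Their titles name shPLEKHA7 and were followed.

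An miRNA pair within a host gene can be cut from 1 primary transcript: Drosha releases each hairpin, Dicer trims it, and an Argonaute protein keeps mainly 1 strand. Target choice is set mostly by the seed, bases 2 to 8 of the mature strand, so clustered miRNAs with unlike seeds need not share targets. miR-191 is found in most tissues and has often served as an endogenous reference for miRNA measurements, although it is also reported at altered levels in colorectal tumours. miR-425 is best known in cancer work and as a regulator of natriuretic peptide A.

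The mature strands that the probes target are shown because they set which molecules were counted, with the seed in capitals. These are the deposited target letters written as RNA.

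hsa-miR-191: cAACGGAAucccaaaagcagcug

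hsa-miR-425: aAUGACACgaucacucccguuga

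Both are 23 bases long. Their seeds match at 2 of 7 positions, and the longest run of letters shared by the mature strands is 4 bases. Of the 654 human miRNA probes, 0 others had the seed of miR-191 and 0 others that of miR-425. The panel also held 0 probes for the opposite arm of either hairpin, so 1 strand of each was read.

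The RefSeq hairpins (GRCh38.p14, minus strand) show where each counted strand sits, in capitals. MIR191 lies at chr3:49020618-49020709 and its counted strand at chr3:49020672-49020694. MIR425 lies at chr3:49020148-49020234 and its counted strand at chr3:49020199-49020221.

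MIR191: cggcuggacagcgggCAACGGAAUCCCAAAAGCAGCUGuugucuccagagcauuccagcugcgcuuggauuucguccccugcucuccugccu

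MIR425: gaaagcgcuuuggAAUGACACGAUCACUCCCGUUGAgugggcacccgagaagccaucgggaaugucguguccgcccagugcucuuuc

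The hairpins are 92 and 87 bases long and 383 bases apart. Both lie on the strand of DALRD3, inside its annotated span, with MIR191 first in the direction of transcription. In each hairpin the probed strand is the 5′ arm, starting at base 16 in MIR191 and base 14 in MIR425. The gene table used here does not give exons, so exonic or intronic position was not read from it. Transcripts of DALRD3 were not measured by the panel.

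Neither miRNA passed the test between shPLEKHA7 and NT cells. miR-191 was well above background in all 5 lanes, with a log2 fold change of -0.18. miR-425 stood near background throughout, was above it in 0 of 2 NT lanes and 2 of 3 shPLEKHA7 lanes, and had a log2 fold change of 0.30 that is set against an NT level not above background, so its direction is not measured.

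The miRNA probes of a lane summed to between 32138 and 58298 counts. A lane's limit of detection, the mean plus 2 SD of its 8 negative-control probes, ran from 11.0 to 24.5 counts. Spike-in totals ran from 7686 to 10656 in NT and from 10670 to 14239 in shPLEKHA7 lanes, so they did not overlap between groups. The numbers ending the lane names were 1 and 3 for NT and 4, 5 and 6 for shPLEKHA7. If these are lane positions, position and group cannot be told apart. Of the epithelial markers miR-200c and miR-141 and the intestinal markers miR-192 and miR-194, all were above the limit in all 5 lanes. Of the blood markers, miR-223 was above it in 5 lanes, miR-142-3p in 3 and miR-451 in 0. Of the stromal markers, miR-145 was above it in 3 lanes and miR-143 in 0. The summed level of the 2 epithelial markers ran from 1093 to 1151 normalized counts in NT and from 1012 to 1058 in shPLEKHA7 lanes. Those groups did not overlap, as was so for 48.0% of single tested probes. The sum of the 2 intestinal markers ran from 526 to 561 in NT and from 475 to 690 in shPLEKHA7 lanes. That of the 3 blood markers ran from 68.4 to 73.3 and from 68.0 to 77.5, and that of the 2 stromal markers from 20.7 to 26.6 and from 21.9 to 33.7. Fewer cells of a type and less RNA per cell cannot be told apart in such bulk samples.

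miR-191, the more counted member, had raw counts of 78 in NT replicate 1 and 97 in NT replicate 3. In shPLEKHA7 replicates 1, 2 and 3 they were 82, 66 and 115. The raw groups overlapped, with the highest and the lowest count both in shPLEKHA7 lanes. These counts were at least 3.35 times the lane's limit, and no negative control reached them. miR-191 ranked between 50th and 59th of all 734 miRNA probes in each lane. It took 0.223% of the miRNA count in NT replicate 1 (95% Wilson interval 0.179% to 0.278%) and 0.193% in NT replicate 3 (0.158% to 0.235%). The shPLEKHA7 shares were 0.171% (0.138% to 0.212%), 0.205% (0.161% to 0.261%) and 0.197% (0.164% to 0.237%) in replicates 1, 2 and 3. All 5 intervals overlapped, and they cover counting error only.

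After scaling with TMM, which sets lanes to a common level from the bulk of the tested probes, miR-191 stood at 98.9 and 91.2 normalized counts in NT replicates 1 and 3. It stood at 74.8, 90.7 and 86.9 in shPLEKHA7 replicates 1, 2 and 3. Every shPLEKHA7 lane was below both NT lanes, but shPLEKHA7 replicate 2 was only just below NT replicate 3. The means were 95.02 ± 5.43 (SD, n = 2) in NT and 84.1 ± 8.3 (SD, n = 3) in shPLEKHA7 cells. Groups without overlap were found for 48.0% of the 204 tested probes, so this pattern was near the background.

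The edgeR quasi-likelihood test gave a log2 fold change of -0.18 for miR-191 (SE 0.16, Benjamini-Hochberg adjusted p = 0.579). Its 95% interval ran from -0.55 to 0.19, or from 0.685 to 1.14 times the NT level. Of the tested probes, 6.37% were called at an adjusted p under 0.05 in either direction, against 0 of the 2 cluster members. Without shPLEKHA7 replicate 1, its lowest lane, the log2 fold change was -0.10. By absolute log2 fold change 141 of the 204 tested probes moved more than miR-191.

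The log2 normalized counts of miR-191 varied over the 5 lanes, both groups together, with an SD of 0.148. Counting error alone would give about 0.157, so variation between the samples below that size was not detectable at this depth. On edgeR's log scale its SD was the 17th lowest of 204, at 0.15 against a median of 0.30. It ranked 53rd of 204 by level, and lower counts carry more counting error, so this order also reflects depth. Its highest lane was 1.32 times its lowest.

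miR-425, the sparsely counted member, had raw counts of 8 in NT replicate 1 and 16 in NT replicate 3. In shPLEKHA7 replicates 1, 2 and 3 they were 15, 13 and 22. The groups overlapped, and only NT replicate 1 lay below all others. Set against limits of 13.4, 20.6, 24.5, 11.0 and 20.2 in the same order, only shPLEKHA7 replicates 2 and 3 were above background, at 1.18 and 1.09 times the limit. Of the 8 negative controls, 3 reached the miR-425 count in NT replicate 1, 2 in NT replicate 3, 3 in shPLEKHA7 replicate 1 and 0 in the remaining lanes. The exact 95% Poisson intervals of the counts ran from 3.45 to 15.8 in NT replicate 1 and from 13.8 to 33.3 in shPLEKHA7 replicate 3, the lowest and highest lanes, and overlapped.

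**Figure D1:**
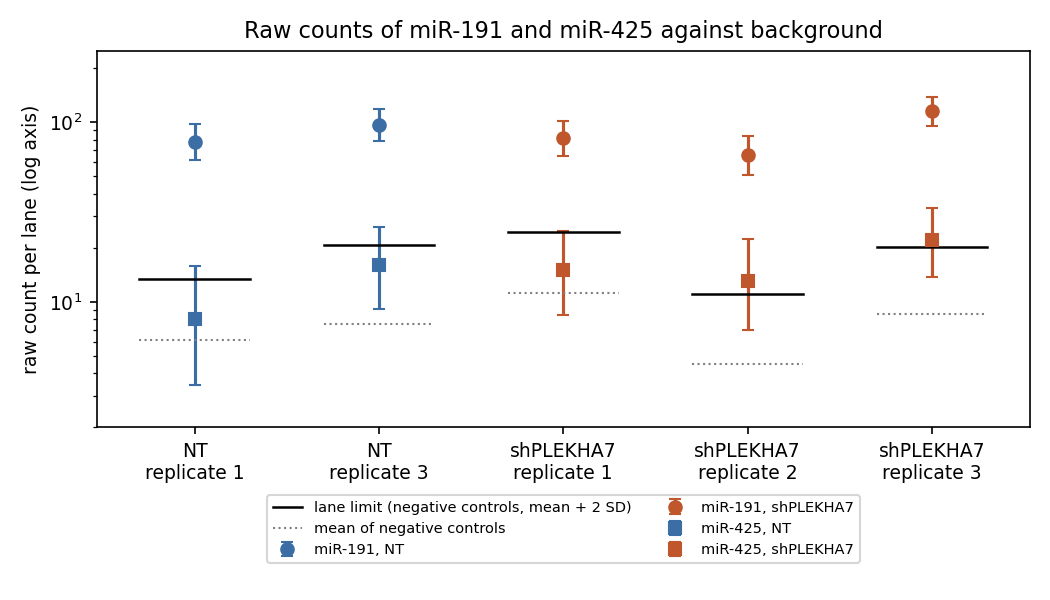
Raw counts of miR-191 (circles) and miR-425 (squares) in the 5 lanes on a log axis, with exact 95% Poisson intervals, each lane's limit of detection (solid line) and mean negative-control count (dotted line). All miR-191 counts sit above the limit, whereas miR-425 is above it only in shPLEKHA7 replicates 2 and 3.

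miR-425 entered the test through those 2 lanes alone, since a probe had to exceed the limit in at least 2 lanes. Its normalized counts were 10.1 in NT replicate 1 and 15.0 in NT replicate 3, then 13.7, 17.9 and 16.6 in shPLEKHA7 replicates 1, 2 and 3. The NT and shPLEKHA7 ranges overlapped, with NT replicate 3 above shPLEKHA7 replicate 1. The means were 12.6 ± 3.5 (SD, n = 2) and 16.1 ± 2.1 (SD, n = 3). edgeR gave a log2 fold change of 0.30 (SE 0.39, adjusted p = 0.696) with a 95% interval from -0.57 to 1.18, or 0.674 to 2.26 times the NT level. As no NT lane was above background, the size of this fold is not measured. Leaving out NT replicate 1 gave 0.08, and leaving out NT replicate 3 gave 0.69. The SE of miR-425 was the 169th smallest of 204, against a median of 0.25, and its interval holds folds on both sides of 1 that these counts could not tell apart. Its SD over the lanes, 0.318 on the log2 scale, was below the 0.396 of counting error alone.

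**Figure D2:**
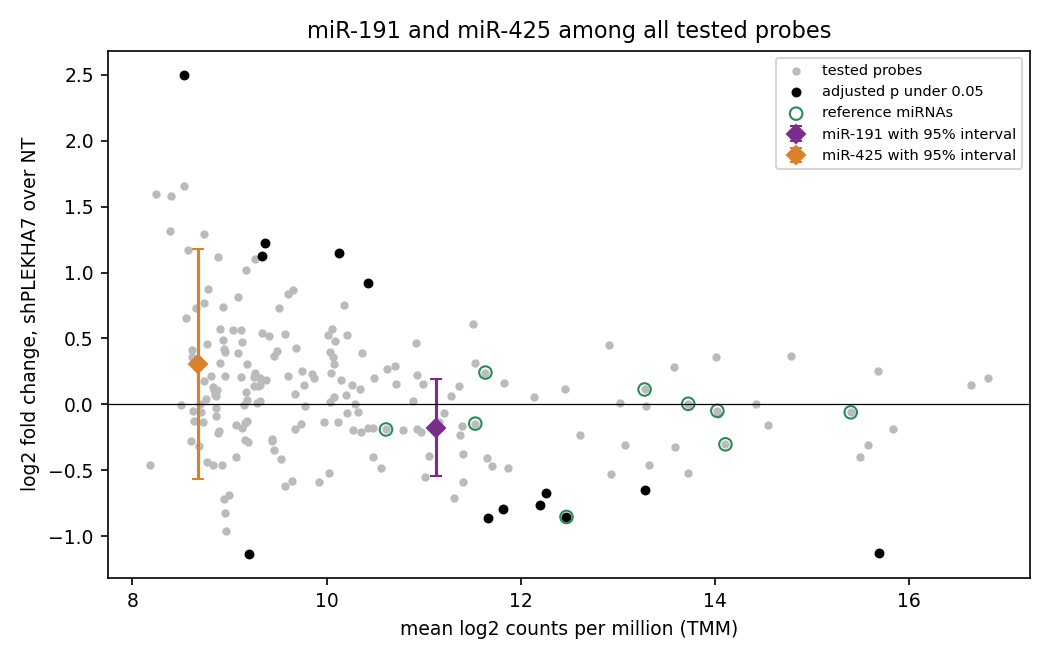
Log2 fold change of shPLEKHA7 over NT against mean TMM-scaled log2 abundance for the 204 tested probes (grey), those called at an adjusted p under 0.05 (black), the tested reference miRNAs (green rings) and both cluster members with 95% intervals. The intervals of miR-191 (-0.55 to 0.19) and miR-425 (-0.57 to 1.18) both span 0, and miR-425 lies at the low end of the abundance axis.

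The level of both miRNAs depended on what the lanes were scaled to. In the deposited values, scaled to housekeeping mRNAs, NT replicates 1 and 3 had miR-191 at 95.6 and 105, and shPLEKHA7 replicates 1, 2 and 3 at 76.7, 74.9 and 103. There shPLEKHA7 replicate 3 fell between the NT lanes, so the groups overlapped. Scaled to spike-in totals, its NT replicates 1 and 3 were at 116 and 104, and shPLEKHA7 replicates 1, 2 and 3 at 67.0, 70.8 and 92.5. The groups were then apart (2-sided exact permutation p = 0.2, where 0.1 is the smallest that 2 against 3 lanes allow). The raw miR-191 counts overlapped and the spike-in totals did not, so the totals enter this separation. Under this scaling edgeR called 29 tested probes lower and 4 higher. The share of all tested probes with groups apart under it was not computed.

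Under spike-in scaling edgeR gave miR-191 a log2 fold change of -0.51 (SE 0.27, adjusted p = 0.192) and miR-425 one of -0.02 (SE 0.47, adjusted p = 0.970), so the sign of miR-425 turned. That scaling moved the median log2 fold change of all tested probes from 0.06 to -0.27, so the median probe shifted with it. Relative to that median, miR-191 stood at -0.24 under both TMM and spike-in scaling, and miR-425 at 0.24 and 0.25. A change of lane scaling shifts all probes by nearly the same amount, so these values had to stay nearly alike. For the same reason, settings that differ only in scaling add little to the ranges that follow. In the settings that kept all samples, TMM included, miR-191 ran from -0.34 to -0.18 relative to the median tested probe (15 settings). miR-425 ran from 0.13 to 0.58 (14 settings), set against an NT level not above background, so its direction is not measured. With a sample left out, miR-191 went to -0.14 without shPLEKHA7 replicate 1. miR-425 went to 0.60 without NT replicate 3 and to -0.04 without NT replicate 1, where its sign relative to the median turned. The log2 fold change of miR-425 itself stayed above 0 there, at 0.08. The part of the spike-in difference in these values was not tested.

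**Figure D3:**
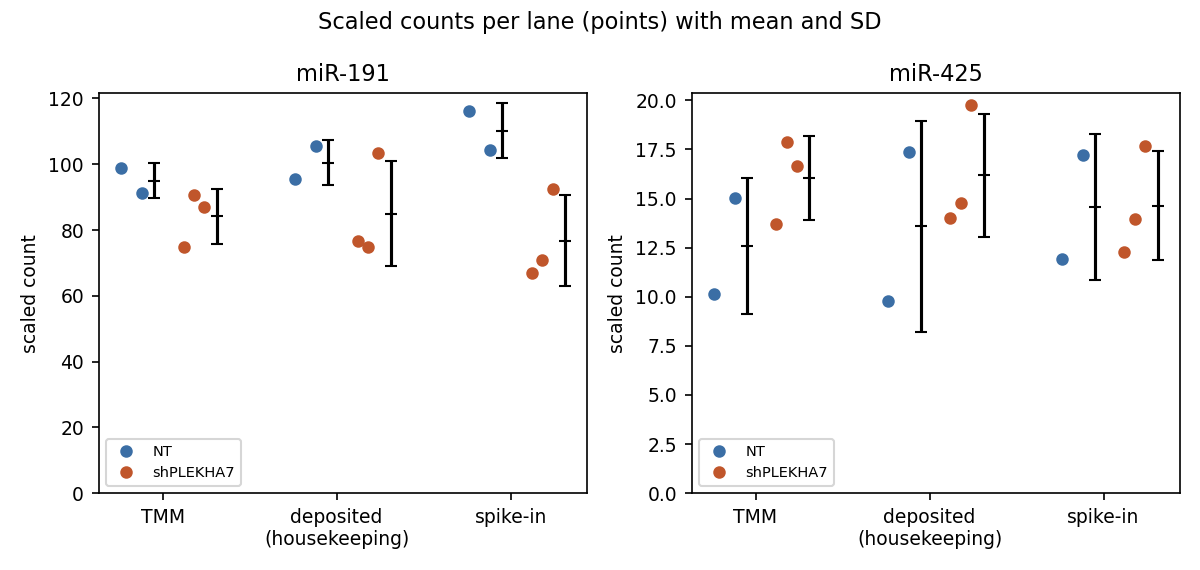
Counts of miR-191 (left) and miR-425 (right) in each lane under TMM, deposited and spike-in scaling, with the group mean and SD in black beside the points. For miR-191 the groups are apart under TMM and spike-in scaling and overlap in the deposited values. For miR-425 they overlap under all 3. Under TMM 48.0% of tested probes had groups apart, and under spike-in scaling that share was not computed.

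The ratio of the cluster members within a lane does not depend on any lane scaling. Its numerator, miR-425, was above background only in shPLEKHA7 replicates 2 and 3, so in the other 3 lanes the ratio sets miR-191 against a count not above background. Between different probes it reads capture and detection as well as abundance, so only its change between lanes is compared. The log2 ratio of miR-425 to miR-191 counts was -3.29 in NT replicate 1 and -2.60 in NT replicate 3. It was -2.45, -2.34 and -2.39 in shPLEKHA7 replicates 1, 2 and 3. All shPLEKHA7 ratios were above both NT ratios. Groups apart were found for 48.0% of single tested probes after TMM scaling, although that share is not one of ratios. The shPLEKHA7 ratios lay close together, while those of the 2 NT lanes were spread more widely.

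The means of this log2 ratio were -2.94 ± 0.48 (SD, n = 2) in NT and -2.39 ± 0.05 (SD, n = 3) in shPLEKHA7 cells, a difference of 0.55 (2-sided exact permutation p = 0.1, the smallest this design allows). Counting error alone gave an SE of 0.34 to 0.54 per lane, and the exact intervals of all 5 ratios overlapped. Without NT replicate 1, whose miR-425 count was 8, the difference was 0.21, and without NT replicate 3 it was 0.89. With the mean negative-control count subtracted first, the ratios were -5.26 and -3.40 in NT and -4.19, -2.86 and -2.98 in shPLEKHA7 replicates 1, 2 and 3. The groups then overlapped, with a difference of 0.99 (2-sided exact permutation p = 0.4), so a change in the ratio was not measurable here.

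**Figure D4:**
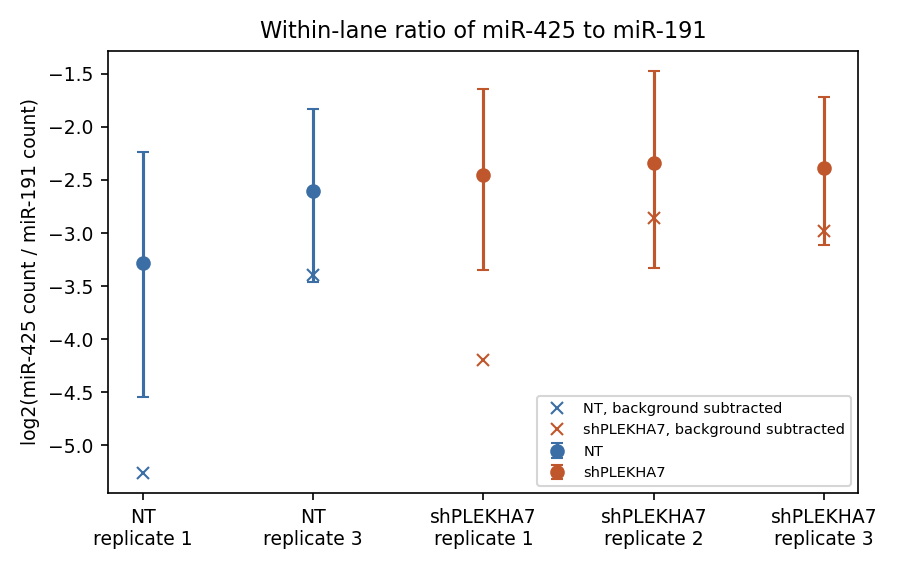
Within-lane log2 ratio of miR-425 to miR-191 raw counts in the 5 lanes with exact 95% counting intervals (circles), and the same ratio after subtracting the mean negative control (crosses). The shPLEKHA7 circles lie above the NT circles, their intervals overlap, and the crosses of the groups overlap.

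The profile of each member over the 5 lanes was set beside every other tested probe, as the root mean square difference of TMM-scaled log2 abundance after centring each probe on its mean. Nearest to miR-191 were miR-221 (0.06), miR-361-5p (0.09) and let-7a (0.09), against a median of 0.31 over the 203 others. miR-221, known to repress the cell cycle inhibitor p27, had a log2 fold change of -0.23 (SE 0.13), miR-361-5p one of -0.19 (SE 0.17) and let-7a, of the let-7 tumour suppressor family, one of 0.004 (SE 0.14). None of the 3 was called. Picking probes by likeness over these same lanes favours fold changes near that of miR-191, so they are no separate evidence. Its cluster partner miR-425 was at 0.31, but with counts below the limit in 3 of 5 lanes that distance holds background and counting error.

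Nearest to miR-425 were miR-130b (0.07), miR-1260 (0.07) and miR-296-5p (0.09), with a median of 0.35 over the 203 others. Their log2 fold changes were 0.31 (SE 0.17), 0.28 (SE 0.16) and 0.29 (SE 0.18), and none was called. As they were picked by likeness to miR-425 over these same lanes, fold changes near its 0.30 follow from the choice. All 3 were above background in all 5 lanes, unlike miR-425 itself. Counting error in 8 to 22 counts enters the miR-425 profile, so this order is a description of these lanes.

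Because miR-191 is used as a reference, 10 miRNAs that have also served as references were set beside it. Of these, 9 were tested and 1, miR-345, had counts of 8 to 21 and was not. Over all 204 tested probes 6.37% were called, 8 lower and 5 higher. None of the 9 references was called higher, 1 was called lower and 8 were not called. The one called was miR-24, of the miR-23-27-24 clusters, at log2 -0.85 (SE 0.13, edgeR adjusted p = 0.0186). It did not pass with NT replicate 1 left out (edgeR adjusted p = 0.0672), with NT replicate 3 left out (0.0627) or under housekeeping scaling (0.0842), nor by limma with a pseudocount of 1. The median log2 fold change of the 9 was -0.06, against 0.06 over all tested probes. miR-103, often paired with miR-191 as a reference, was at -0.30 (SE 0.12, adjusted p = 0.162), and its relative miR-107 was at -0.19 (SE 0.17). miR-16, of the miR-15/16 family, was at -0.06 (SE 0.14), miR-26a at -0.05 (SE 0.13) and miR-423-5p at -0.15 (SE 0.15). miR-25 and miR-93, both of the miR-106b-25 cluster, were at 0.11 (SE 0.13) and 0.24 (SE 0.18). Over the 5 lanes 6 of the 9 varied less than miR-191, with miR-25 lowest (SD 0.09 on edgeR's log2 scale) and miR-24 highest (0.47). Of these 6, let-7a, miR-16, miR-25, miR-26a and miR-423-5p had higher counts than miR-191, and miR-107 lower. The references that varied more, miR-24, miR-93 and miR-103, also had higher counts than miR-191. The spread of miR-191 did not exceed its counting error, so depth may enter this order, but its part was not tested.

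Within-lane ratios to these references again need no scaling. The log2 ratio of miR-191 to miR-103 was -3.03 in NT replicate 1 and -3.13 in NT replicate 3, against -3.14, -2.92 and -2.81 in shPLEKHA7 replicates 1, 2 and 3. The groups overlapped, with a difference of 0.12 (2-sided exact permutation p = 0.5). Its ratio to let-7a was -2.55 and -2.47 in NT and -2.70, -2.66 and -2.73 in shPLEKHA7 lanes. Those groups were apart by 0.18 (2-sided exact permutation p = 0.1, the smallest possible). They were also apart against miR-93 and miR-25 in the same direction, and against miR-24 in the opposite direction. Against the remaining references they overlapped. Groups apart were common here, found for 48% of single tested probes after TMM scaling, although that share is not one of ratios. Across the 9 references the difference in the log2 ratio ran from -0.40 against miR-93 to 0.68 against miR-24, and was below 0 for 6 and above 0 for 3. The direction of the miR-191 difference thus turned with the reference it was set against. Each difference also holds the change of the reference, and all 9 share the same miR-191 counts. Among those above 0 the groups were apart only against miR-24, the reference that was itself called lower.

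**Figure D5:**
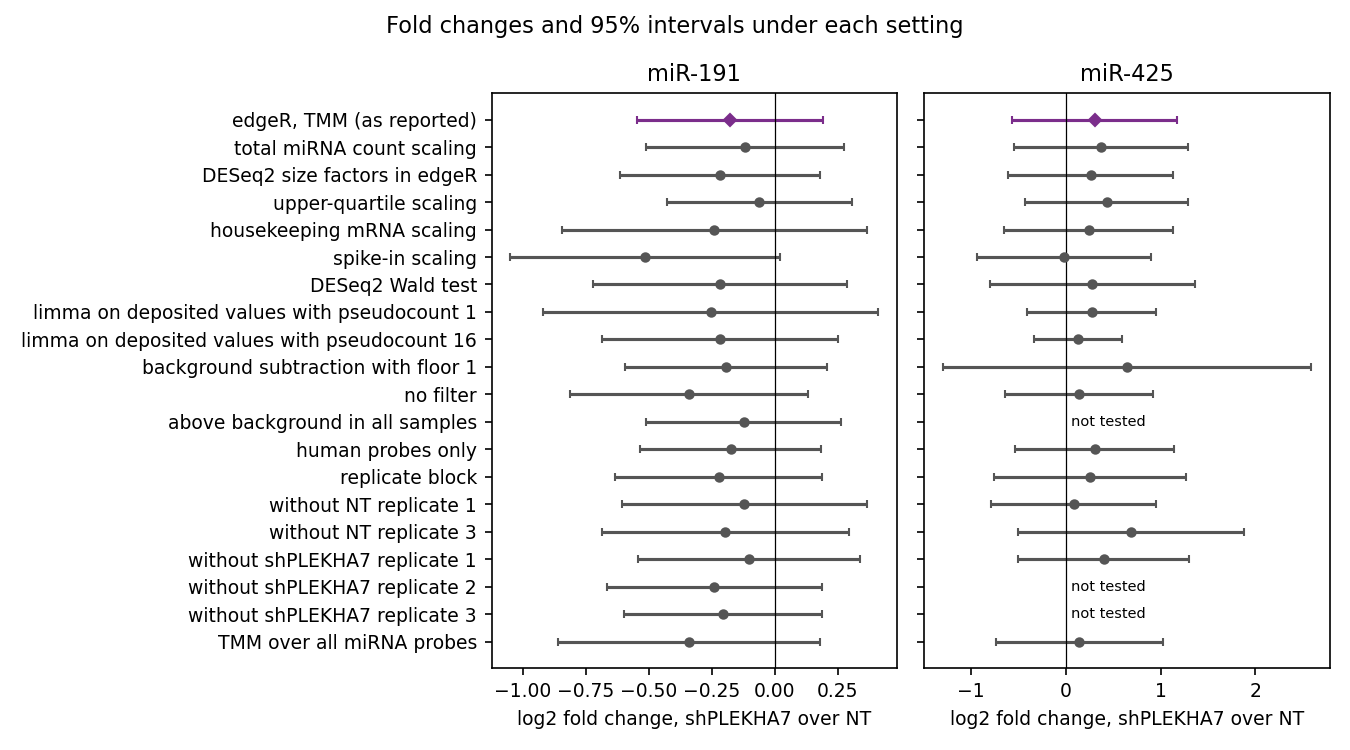
Log2 fold change of shPLEKHA7 over NT with its 95% interval for miR-191 (left) and miR-425 (right) under each scaling, test, filter, block and left-out sample. Every interval spans 0, all miR-191 estimates are below 0, and miR-425 lies below 0 only under spike-in scaling.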

How the data were processed

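The authors deposited raw NanoString nCounter counts per probe and lane, made without amplification. The software used is not given in the sources used here. A second deposited table holds normalized signal, in which each lane's human probes had been multiplied by 1 factor that equalised the housekeeping mRNAs (100% of values to within 0.02). Raw counts of miRNA probes above the lane's limit in at least 2 lanes (204 of 734) were tested with edgeR 4.0.16 (R 4.3.3), using TMM scaling over tested probes and group as the only term. The SE was derived from the fold change and its F statistic, and the 95% interval from that SE and the fit's degrees of freedom. Alternatives used DESeq2 1.42.0 and limma 3.58.1 (log2 of the deposited signal plus a pseudocount of 1 or 16). edgeR was tested on simulated data. Same-numbered samples were not treated as paired, since no label ties a number to an infection. Their deviations correlated at 0.04 and 0.16, and those of unlike-numbered samples at between -0.16 and 0.13. With 2 NT lanes the NT deviations mirror each other, so these values cannot decide pairing. Named miRNAs were the members, a list of reference miRNAs and the 3 probes nearest each member. Members and lists were chosen with earlier results of these data known. Mature strands were matched to RefSeq hairpins of GRCh38.p14.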

Additional observations from a re-analysis of the deposited data

How the results depend on the processing

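The log2 fold change of miR-191 stayed below 0 and uncalled in all 14 other settings that kept all samples (-0.51 to -0.06, adjusted p from 0.192 to 0.855) and in 5 with a sample left out (-0.24 to -0.10). miR-425 was uncalled in 13 such settings (highest 0.65, after background subtraction) and turned to -0.0198 under spike-in scaling. With a sample left out it ran from 0.08 without NT replicate 1 to 0.69 without NT replicate 3. It was not tested without shPLEKHA7 replicate 2 or 3, or where all lanes had to exceed the limit, since too few lanes did, and DESeq2 gave it no adjusted p. With the replicate block miR-191 was at -0.22 and miR-425 at 0.25, neither called, and the within-lane ratio at 0.52. The 13 probes called became 20 with total counts, 33 with spike-in, 6 with housekeeping scaling, 4 by limma with a pseudocount of 16, 22 with the replicate block, 21 at an adjusted p under 0.1, and 0 to 18 with a sample left out (0 by edgeR without NT replicate 3, where 34 had an unadjusted p under 0.05). TMM over all miRNA probes was added after seeing the data (-0.34 and 0.14). Counts of 8 to 22 and 2 against 3 lanes both limit miR-425.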
